A study of Homo sapiens with 2 samples.

Results

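NEAT1 and MALAT1 are neighbouring genes of nuclear long non-coding RNAs on human chromosome 11. Their chromatin contacts were described here in HCT116, an established human colorectal carcinoma cell line. The contacts were measured by HiChIP with an H3K27ac antibody, in which chromatin cut with MboI is ligated and then immunoprecipitated, so that a sequenced pair of tags joins a pair of fragments that were close to each other in chromatin carrying this mark of active promoters and enhancers. The members are all pairs of different anchors (the intervals between which tags were counted) with midpoints up to 1 Mb apart and at least 1 anchor overlapping the interval of chromosome 11 from 65.15 to 65.3 Mb (hg19). The rule found 434 such pairs with counts, 226 in replicate 1 and 292 in replicate 2, out of 1765996 pairs within 1 Mb in the whole series. The pairs involve 18 anchors of this interval out of 250222 anchors in all, which are called A1 to A18 in the direction of the plus strand.

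Both replicates are of 1 condition, HCT116 cells in standard culture, so no condition was compared with another. Nothing states that they came from separate cultures, so the spread between them may be technical. They held 1885481 and 2131466 counts in all. Of the promoters of 8 colorectal epithelium genes, 4 (KRT8, KRT18, CDX2 and LGALS4) had an anchor pair with a summed count of at least 5. The promoters of EPCAM, CDH1, VIL1 and CDX1 had no such pair. Over all 20163 protein-coding genes the share was 30.3%. Only 16576 of these had a promoter anchor and could have a pair, whereas all 8 genes of the list had one, so the shares are not of like sets. The promoters of the blood genes PTPRC, CD3E and SPI1 and the fibroblast genes COL1A1, COL1A2 and DCN had no such pair either. Nor did those of the endothelial gene CDH5 and the hepatocyte gene ALB. By summed counts to all anchors within 1 Mb the lists overlapped, with 14 to 133 for the epithelial genes and 13 to 83 for the fibroblast genes. DCN, with 83, was above every epithelial gene of the list except KRT8 (113) and KRT18 (133). CDH5 with 23 and ALB with 19 were above CDH1 (15), VIL1 (14) and LGALS4 (14). The depth of these promoters thus did not set the epithelial genes apart.

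NEAT1 RNA is the scaffold of paraspeckles, nuclear bodies that assemble around the sites where it is transcribed. MALAT1 RNA is retained in nuclear speckles, which are rich in splicing factors. Both RNAs are abundant in many cultured human cells, both come from genes transcribed largely without splicing, and both have been studied in colorectal and other tumours. Acetylation of histone H3 at lysine 27 is found at active promoters and enhancers, and a HiChIP contact between a pair of such elements reports that they were near each other in some of the cells, not that one regulates the other.

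NEAT1 (ENSG00000245532.11_10) lies on the plus strand at chr11:65190245-65213011, a stretch of 22767 bp, and MALAT1 (ENSG00000251562.11_10) lies on the same strand at chr11:65265111-65275544, a stretch of 10434 bp. The start sites of their canonical transcripts, which each have 1 exon, are 74.8 kb apart. The gene body of NEAT1 is overlapped by 3 anchors that cover 47.6% of it. A6 (chr11:65185655-65191316) holds the start site, and A7 (chr11:65198864-65201440) and A8 (chr11:65204942-65212126) lie in the exon. The gene body of MALAT1 is overlapped by A16 (chr11:65264115-65268182), which holds the start site, and by A17 (chr11:65273467-65277747), which holds its 3′ end and the start site of TALAM1, a transcript antisense to MALAT1. These 2 anchors cover 49.4% of the gene. Reads from the rest of both genes did not enter any count, although NEAT1 has 21 and MALAT1 has 11 MboI sites outside the anchors.

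The other anchors of the interval fall into 3 groups. Upstream of NEAT1 are A1 at the start site of SLC25A45, a gene of the mitochondrial carrier family, A2 at the start site of FRMD8, a FERM domain protein that binds iRhom proteins, and A3 to A5 in the body of FRMD8. Between NEAT1 and MALAT1 are A9 to A15. Within these, A10 holds the start site of the pseudogene FAUP4, A14 that of LINC02736, and A12, A13 and A15 those of non-coding transcripts known only by identifier (ENSG00000290061 for A15). Downstream of MALAT1 is A18. The start site of the pseudogene SNRPGP19 is not in an anchor.

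The promoter sequences of MALAT1 are shown because A16, the anchor that carries its start site contacts, contains both promoters that RefSeq gives for the gene. Each runs from 250 bases before to 50 bases after a start site and is given in GRCh38.p14 on the plus strand. The first is at chr11:65497488-65497787, which matches hg19 chr11:65264959-65265258, with the GC box GGGCGG in capitals on either strand. The second is at chr11:65498795-65499094, which matches hg19 chr11:65266266-65266565, with the TATA box TATAAA in capitals.
MALAT1 promoter 1: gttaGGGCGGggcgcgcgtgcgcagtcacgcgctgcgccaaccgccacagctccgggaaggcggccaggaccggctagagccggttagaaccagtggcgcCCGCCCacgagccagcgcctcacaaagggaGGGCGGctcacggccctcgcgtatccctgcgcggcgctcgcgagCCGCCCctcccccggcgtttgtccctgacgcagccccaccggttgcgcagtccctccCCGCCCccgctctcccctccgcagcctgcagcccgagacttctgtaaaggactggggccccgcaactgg
MALAT1 promoter 2: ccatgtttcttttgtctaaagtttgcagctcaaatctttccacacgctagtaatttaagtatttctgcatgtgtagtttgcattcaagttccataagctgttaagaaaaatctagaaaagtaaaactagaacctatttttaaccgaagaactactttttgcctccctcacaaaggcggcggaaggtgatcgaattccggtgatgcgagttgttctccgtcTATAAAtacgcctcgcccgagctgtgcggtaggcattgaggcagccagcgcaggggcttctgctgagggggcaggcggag

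Promoter 1 has 5 matches to GGGCGG and 37 CpG dinucleotides, more than 88.7% of RefSeq promoters. GGGCGG is found in 45.0% of the 35116 promoters of the table. Promoter 2 has 14 CpG dinucleotides, the same as the median of all promoters, and 1 match to TATAAA that begins 30 bases before its start site, a motif found in 11.5% of promoters. Neither promoter matches the AP-1 motif TGANTCA or the E-box CACGTG on either strand. These are matches of letters and were not tested as binding sites.

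CTCF holds the base of many chromatin loops, and the core of its motif was searched on both strands of all anchors. It was found in 2 of the 18 anchors of the interval, A3 and A9, and in 8.94% of all anchors. Both matches read on the minus strand, at chr11:65166186-65166217 and chr11:65216189-65216220 (hg19), and the core is in capitals.
A3 (in FRMD8): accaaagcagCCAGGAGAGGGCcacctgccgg
A9 (between NEAT1 and MALAT1): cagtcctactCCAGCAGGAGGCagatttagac

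These are among the shallow anchors of the interval, with summed counts of 17 for A3 and 20 for A9. The anchors of the gene starts had no match in these letters. A6 and A16 were rich in CpG, with 31.6 and 33.7 per kb compared with a median of 7.97 per kb over all anchors.

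The anchors of the interval took part in 434 pairs with a summed count of 928, 404 in replicate 1 and 524 in replicate 2. The mean number of pairs was 259 ± 46.7 (SD, n = 2 replicates). A total of 84 pairs, 19.4% (exact 95% interval 15.7 to 23.4), had counts in both replicates, compared with 11.3% of all pairs within 1 Mb. A summed count of at least 5 was reached by 36 pairs, 8.29% (5.88 to 11.3), compared with 1.64% in the whole series and 1.73% on chromosome 11, and 34 of these 36 pairs had counts in both replicates. Thus pairs of the interval were more often deep and more often repeated than pairs of the series as a whole. The pairs share anchors and are not independent, so no test was made against the genome. A single count made up 311 of the pairs (71.7%), and nothing about these pairs alone can be separated from counting error.

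Most counts of the interval joined anchors within it. No such share was taken for other intervals of like size and depth, so this is a description. Pairs with both anchors among A1 to A18 made up 109 of the 434 pairs (25.1%) and 527 of the 928 counts (56.8%), and 109 of the 153 possible pairs had counts. The median distance was 161 kb per pair and 58.9 kb per count, compared with 135 kb and 79.8 kb in the whole series.

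**Figure D1:**
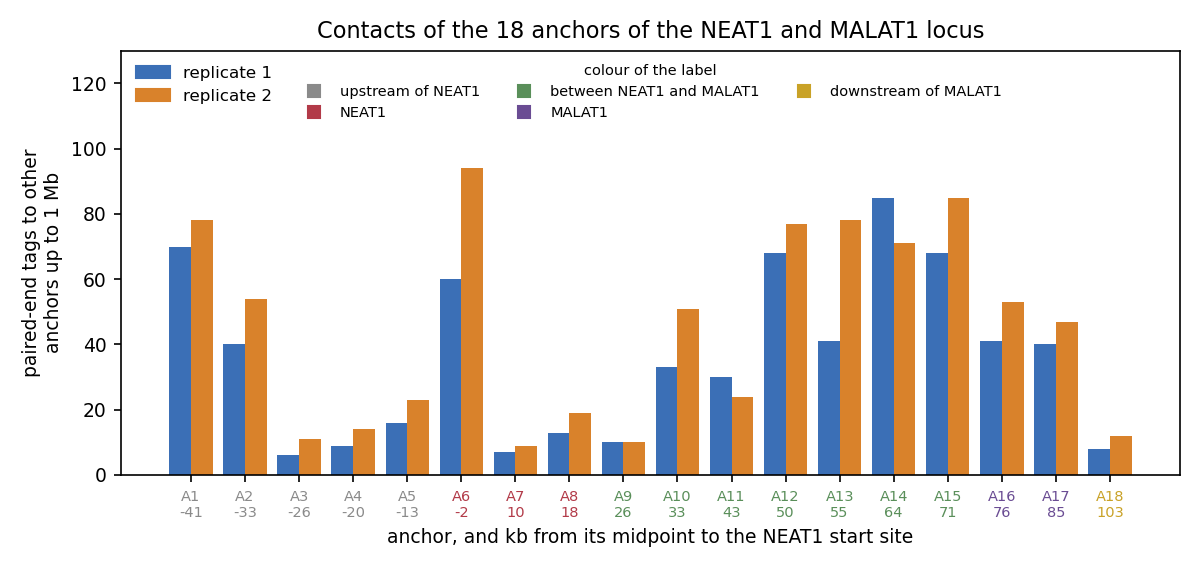
Paired-end tags of each anchor to other anchors up to 1 Mb away (y axis, counts) for anchors A1 to A18 (x axis, with the distance of the midpoint to the NEAT1 start site in kb), with bars for each replicate. A6 at the NEAT1 start had 60 and 94 counts and A16 at the MALAT1 start had 41 and 53, whereas A14 and A15 between the genes reached 156 and 153 in sum.

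The start sites of both genes were among the deepest promoter anchors of the genome, as the plot of counts per anchor shows. A6, at the NEAT1 start, had 60 and 94 counts to other anchors within 1 Mb, a sum of 154 (exact Poisson 95% interval 131 to 180), compared with a median of 24.0 over 16686 anchors at protein-coding promoters, 99.8% of which were lower. A16, at the MALAT1 start, had 41 and 53 counts, a sum of 94 (76.0 to 115), with 98.4% of promoter anchors lower. A17, at the MALAT1 3′ end, had 40 and 47 counts, a sum of 87 (69.7 to 107). The NEAT1 start was higher than both MALAT1 anchors in each replicate, and the counts of A16 and A17 overlapped. A6 is the wider anchor, and per kb of anchor it had 10.6 and 16.6 counts, compared with 10.1 and 13.0 for A16. A17 had 20.3 per kb in sum (16.3 to 25.1), compared with 23.1 (18.7 to 28.3) for A16. On this scale the levels of the start anchors of NEAT1 and MALAT1 overlapped between replicates, and 99.4% and 98.6% of promoter anchors were lower.

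The body of NEAT1 was far shallower than its start. A7, in the first part of the exon, had 7 and 9 counts, and A8, which ends close to the 3′ end, had 13 and 19. Per kb of anchor these are 6.21 and 4.45 counts in sum, compared with 27.2 for A6 and a median of 5.45 over all anchors. The contacts of NEAT1 described below are therefore mainly those of its start, whereas those of MALAT1 come in similar numbers from both of its ends. Tags that joined an anchor with itself numbered 14 and 28 in A6, 1 and 4 in A16, and 13 and 9 in A17.

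Several anchors that hold no protein-coding promoter were as deep as the start of NEAT1. A14 at LINC02736 had 85 and 71 counts, A15, which lies 3.76 kb upstream of the MALAT1 start, had 68 and 85, and A12 had 68 and 77. Their sums (156, 153 and 145) and that of A6 (154) differ by less than their counting intervals. A1 at SLC25A45 had 70 and 78. Per kb, A15 had 49.3 counts (41.8 to 57.7) and A1 had 47.4 (40.0 to 55.6), both above A6 with 27.2 (23.1 to 31.9). A13 was the anchor whose replicates were furthest apart, with 41 and 78 counts, so that 65.5% (56.3 to 74.0) of its counts came from replicate 2, compared with 53.6% in the whole series.

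**Figure D2:**
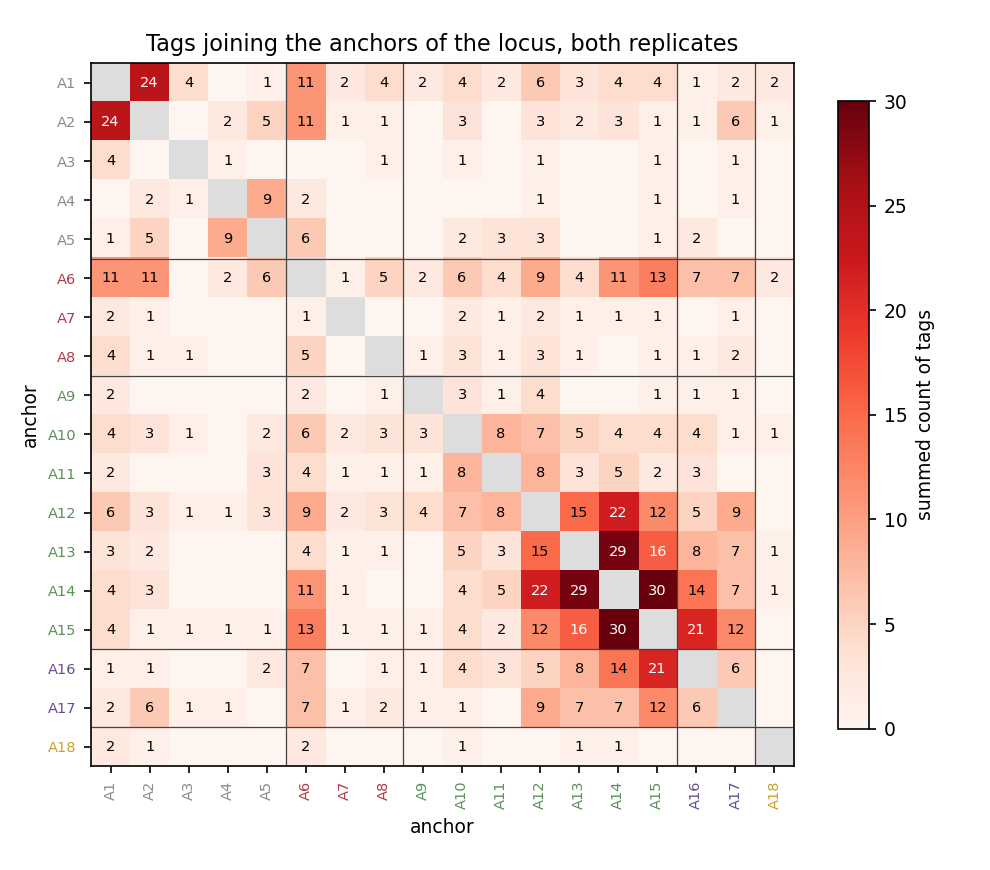
Summed counts of both replicates for each pair of anchors A1 to A18 (both axes, colour and number for the count, blank for 0, grey for an anchor with itself), with lines between the groups of anchors. The darkest cells join A12 to A16, up to 30 counts for A14 and A15, and A1 to A2 with 24, and the row of A6 at the NEAT1 start holds 13 counts with A15 and 7 each with A16 and A17 of MALAT1.

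Contacts between NEAT1 and MALAT1 were found in both replicates. The 6 pairs that join an anchor of the NEAT1 body with an anchor of the MALAT1 body held 6 counts in replicate 1 and 12 in replicate 2, a sum of 18 (10.7 to 28.4), with counts in 5 of the 6 pairs. The pair of start anchors, A6 and A16, had 1 and 6 counts. The NEAT1 start and the MALAT1 3′ end, A6 and A17, had 4 and 3. Both of these pairs thus had 7 counts in sum, and the start to start pair drew 6 of its 7 from replicate 2. The body of NEAT1 contributed 4 counts, 2 between A8 and A17 and 1 each between A8 and A16 and between A7 and A17.

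These numbers were read against an expected count, which was fitted over all 51094602 anchor pairs of the genome up to 2 Mb apart from the distance and from the depth of both anchors. Because the fit matches the total of each anchor, ratios above 1 with some partners go with ratios below 1 with others. Between the bodies of NEAT1 and MALAT1 6.32 counts were expected, so the ratio of observed to expected was 2.85 (1.69 to 4.50). The ratio was 2.36 (0.866 to 5.13) in replicate 1 and 3.18 (1.64 to 5.55) in replicate 2, so it was above 1 in both, and with replicate 1 alone the interval included 1. For the start to start pair the ratio was 2.92 (1.17 to 6.02), with 1.02 (0.0259 to 5.71) in replicate 1 and 4.23 (1.55 to 9.20) in replicate 2. The one-sided exact Poisson test of this pair gave p = 0.0115, and the Benjamini-Hochberg adjusted p over all pairs was 1.00.

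As a background, 4000 pairs of protein-coding promoter anchors lay 69.9 to 85.4 kb apart, near the 77.7 kb of the start to start pair. They held 2004 counts, 1.15 times the expected 1735, and a count of at least 7 was reached by 4 of them (0.100%). Most of these pairs had shallower anchors. The 87 pairs with an expected count within 1.5 times that of NEAT1 and MALAT1 held 184 counts against an expected 183, and 83.9% of them had a count. A count of at least 7 was reached by 0 of these 87 pairs.

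**Figure D3:**
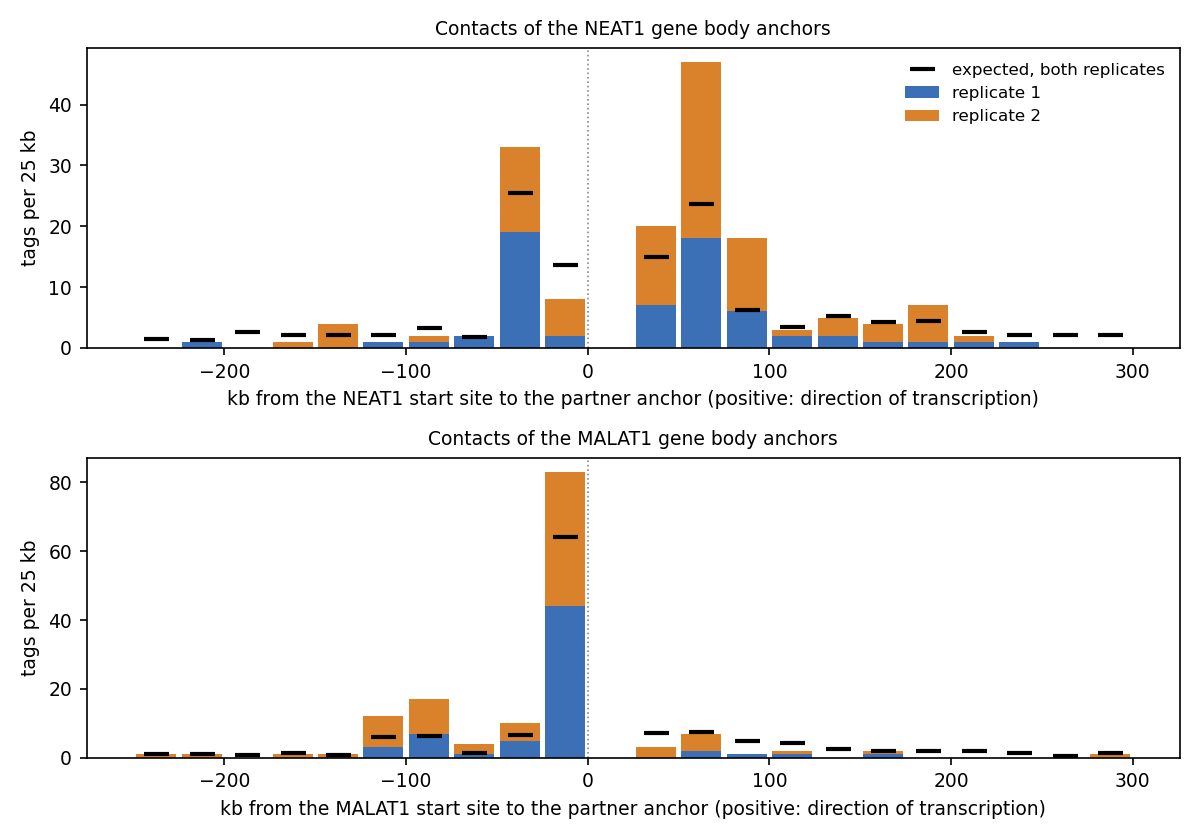
Tags per 25 kb (y axis, stacked for the replicates, with the expected count of both as a black line) against the distance of the partner anchor from the start site (x axis, kb) for the anchors of the NEAT1 body and of the MALAT1 body. NEAT1 held 47 tags at 50 to 75 kb towards MALAT1 against 23.7 expected, and MALAT1 held 83 tags in the 25 kb before its start and 3 at 25 to 50 kb behind it.

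Both genes had most of their contacts on the side of the other. Of the counts of the NEAT1 body to anchors outside the gene, 124 of 190, or 65.3% (58.0 to 72.0), went towards MALAT1, compared with 53.2% expected from distance and depth. The shares in the replicates were 56.6% and 71.1%, with a mean of 63.8 ± 10.2% (SD, n = 2 replicates), so the expected share lay about 1 SD below the mean. Of the counts of the MALAT1 body, 145 of 169, or 85.8% (79.6 to 90.7), went towards NEAT1, compared with 67.3% expected. The shares of the replicates, 89.3% and 83.0%, were closer to each other here (86.2 ± 4.49%), and both were above the expected share. As a description of single anchors, 33.2% of the 367 anchors of the genome with a depth similar to that of the NEAT1 start A6 were at least as one-sided in either direction, compared with 2.21% of 1719 for A16 and 0.351% of 2281 for A17. The lean of the NEAT1 start was thus common at its depth. These shares rank the raw lean, not the lean relative to the expected one. From distance and depth, 66.4% of the counts of A16 and 65.7% of those of A17 were already expected on the side of NEAT1. For A6, 46.3% were expected on the side away from MALAT1, so its expected lean was smaller.

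The plot of tags by distance shows where these contacts lie. NEAT1 held 18 and 29 counts at 50 to 75 kb downstream of its start, where A12 to A15 are, 1.99 times the expected count (1.46 to 2.64). At 75 to 100 kb, where MALAT1 is, it held the 18 counts given above. Beyond it, at 100 to 125 kb, 3 counts were found against 3.50 expected, a ratio of 0.856 whose interval included 1. On its other side NEAT1 held 19 and 14 counts at 25 to 50 kb, which contain the starts of SLC25A45 and FRMD8, 1.30 times the expected count (0.895 to 1.83).

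MALAT1 held 44 and 39 counts in the 25 kb before its start, 1.30 times the expected count (1.03 to 1.61). Its ratio was 2.71 (1.58 to 4.34) at 75 to 100 kb before the start, where A6 is, and 1.97 (1.02 to 3.43) at 100 to 125 kb, where SLC25A45 and FRMD8 are. Downstream no raised ratio was found near the gene. At 25 to 50 kb behind the start 0 and 3 counts were found against 7.34 expected, a ratio of 0.409 (0.0843 to 1.19), and at 50 to 75 kb 2 and 5 counts against 7.49, a ratio of 0.934 (0.376 to 1.92). Both intervals included 1.

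**Figure D4:**
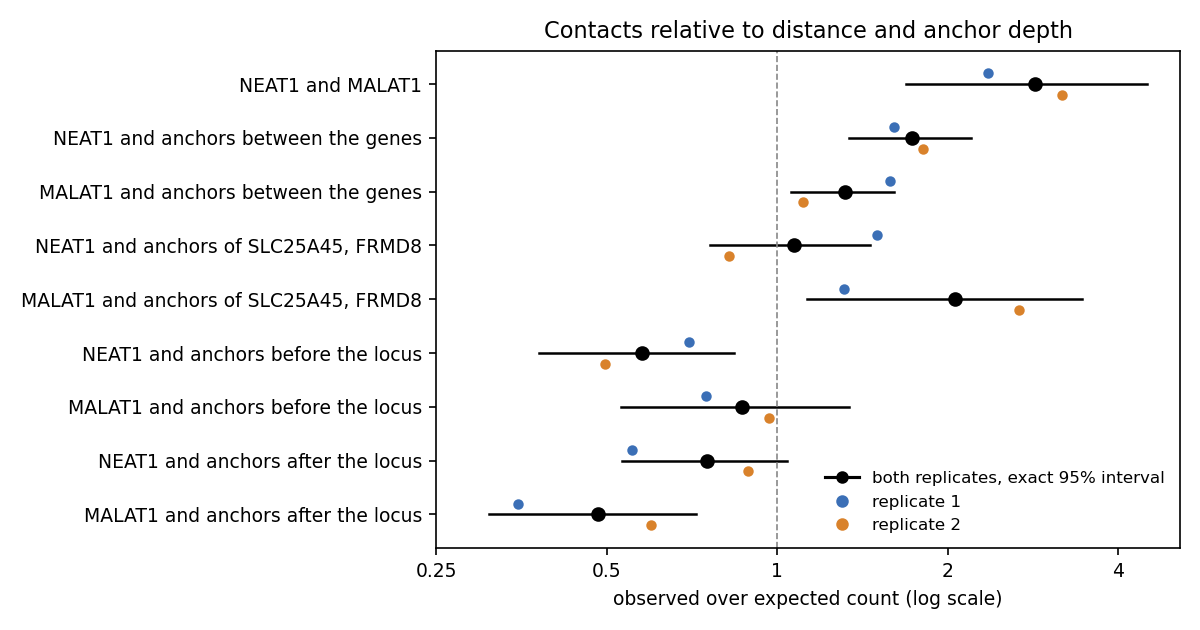
Ratio of observed to expected counts (x axis, log scale) of the NEAT1 and MALAT1 body anchors with groups of partner anchors, for both replicates together with the exact 95% interval (black) and for each replicate (blue and orange). NEAT1 with MALAT1 is at 2.85, and both genes with anchors outside the interval are below 1; these values rise above 1 (1.55 to 2.44) when distance alone sets the expected count.

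The ratios of the groups of anchors give the same picture in 9 values. NEAT1 and the anchors between the genes held 25 and 42 counts, 1.73 times the expected 38.7 (1.34 to 2.20). MALAT1 and the anchors between the genes held 49 and 44, 1.32 times the expected 70.6 (1.06 to 1.61), although replicate 2 alone gave 1.11 (0.807 to 1.49). MALAT1 and the anchors of SLC25A45 and FRMD8 held 4 and 10, 2.06 times the expected 6.78 (1.13 to 3.46), with 1.31 (0.357 to 3.35) in replicate 1. NEAT1, which is nearer to these anchors, held 20 and 19 counts with them, and the ratio of 1.07 (0.761 to 1.46) did not differ from 1 beyond counting error. Raised ratios were not limited to groups with these genes. The anchors upstream of NEAT1 and those between the genes had 1.56 (1.16 to 2.05), with 1.19 (0.746 to 1.80) in replicate 2. Anchors between the genes had 1.17 (1.01 to 1.36) with each other. The other groups without either gene had intervals that included 1. For single anchors, partners up to 100 kb away are called nearer. Each anchor from A1 to A18 had a ratio above 1 with its nearer partners and below 1 with its farther ones, for A6 1.33 and 0.684. The 367 anchors with a depth similar to that of A6 had medians of 0.990 and 1.02, and 5.18% of them had a lower ratio with farther partners. Among A1 to A18, each set against anchors of its own depth, this share ran from 0.707% for A5 to 37.6% for A2.

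With anchors outside the interval the ratios were lower. NEAT1 held 13 and 14 counts with anchors before the interval, 0.576 times the expected 46.9 (0.380 to 0.838), and 11 and 26 with anchors after it, 0.753 times the expected 49.1 (0.531 to 1.04). MALAT1 held 8 and 12 counts with anchors before the interval, 0.866 times the expected 23.1 (0.529 to 1.34), and 8 and 16 with anchors after it, 0.482 times the expected 49.7 (0.309 to 0.718). The ratios of NEAT1 before the interval and of MALAT1 after it were below 1 in both replicates (for NEAT1 0.698, 0.372 to 1.19, in replicate 1 alone), but they depend on the depth of the anchors, and against distance alone they were 1.64 (1.08 to 2.39) and 1.55 (0.995 to 2.31).

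The deepest pairs of the interval did not involve NEAT1. They were A14 with A15 (16 and 14 counts), A13 with A14 (13 and 16), A1 with A2 (11 and 13), A12 with A14 (12 and 10) and A15 with A16 (11 and 10). Each of these 5 pairs had similar counts in both replicates. All of them join anchors 4.80 to 14.0 kb apart, and A15 with A16, the pair of the MALAT1 start and the anchor just upstream of it, had 0.906 times the expected count (0.561 to 1.39). A13 with A14 at 2.21 (1.48 to 3.17) and A12 with A14 at 1.75 (1.10 to 2.66) were above it, and the latter included 1 in each replicate alone.

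Among the pairs with a summed count of at least 5, the highest ratios were found over longer distances, with 1 exception. A4 and A5, which lie 6.88 kb apart in the body of FRMD8, had 3 and 6 counts and a ratio of 9.76 (4.46 to 18.5). A4 is shallow, with 23 counts in all. When the pair's own count stayed in the depth of its anchors the ratio was 5.56, below the 6.22 of the next pair. Against distance alone it was 4.98. The FRMD8 start and the MALAT1 3′ end, A2 and A17, lie 118 kb apart and had 2 and 4 counts, with a ratio of 6.95 (2.55 to 15.1). The NEAT1 start and A15, the anchor before MALAT1, lie 72.9 kb apart and had 4 and 9 counts, with a ratio of 3.46 (1.84 to 5.91). A12 and the MALAT1 3′ end had 4 and 5 counts and 2.93 (1.34 to 5.57), and the fifth was the start to start pair of NEAT1 and MALAT1. All of these 5 pairs had counts in both replicates, but in replicate 1 alone the interval of each except A4 with A5 included 1.

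Among the anchors between the genes, the start of NEAT1 had its highest counts with those nearest to MALAT1. A6 held 6 counts with A10 (0 and 6), 9 with A12 (5 and 4), 4 with A13 (0 and 4), 11 with A14 (5 and 6) and 13 with A15, although these anchors lie at growing distances of 34.8 to 72.9 kb. The ratios were 0.966 (0.355 to 2.10) for A10, 1.71 (0.781 to 3.24) for A12, 1.02 (0.277 to 2.60) for A13 and 2.48 (1.24 to 4.43) for A14. The intervals of neighbouring anchors in this row overlap. Within the NEAT1 gene, the start and A8 held 2 and 3 counts, and the start and A7 held 0 and 1. Within MALAT1, both ends were joined by 3 and 3 counts, 0.601 times the expected 9.98 (0.221 to 1.31).

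No pair of the interval passed the test against distance and depth at an adjusted p of 0.01 (one-sided exact Poisson test, Benjamini-Hochberg over all 51094602 pairs). In the genome 12 pairs did (2.35e-05%), so the test calls very few pairs at this depth. The lowest adjusted p of the interval was 0.307, for A4 and A5. At an unadjusted p under 0.05 there were 53 pairs, 12.2% of the 434, compared with 28.7% of all pairs with counts. A single count passes this threshold only where the expected count is about 0.05 or less. This is rarer for deep anchors, so these shares are not of like pairs. Against distance alone 23 pairs were called at an adjusted p of 0.01, 5.30% of the pairs with counts, compared with 0.286% of all pairs with counts and 0.0101% of all anchor pairs. For 10 of the 36 pairs with a summed count of at least 5 (27.8%) the exact interval lay wholly above the count expected from distance and depth, close to the 26.3% of all such pairs. The share of deep pairs above this expectation was thus near the background.

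**Figure D5:**
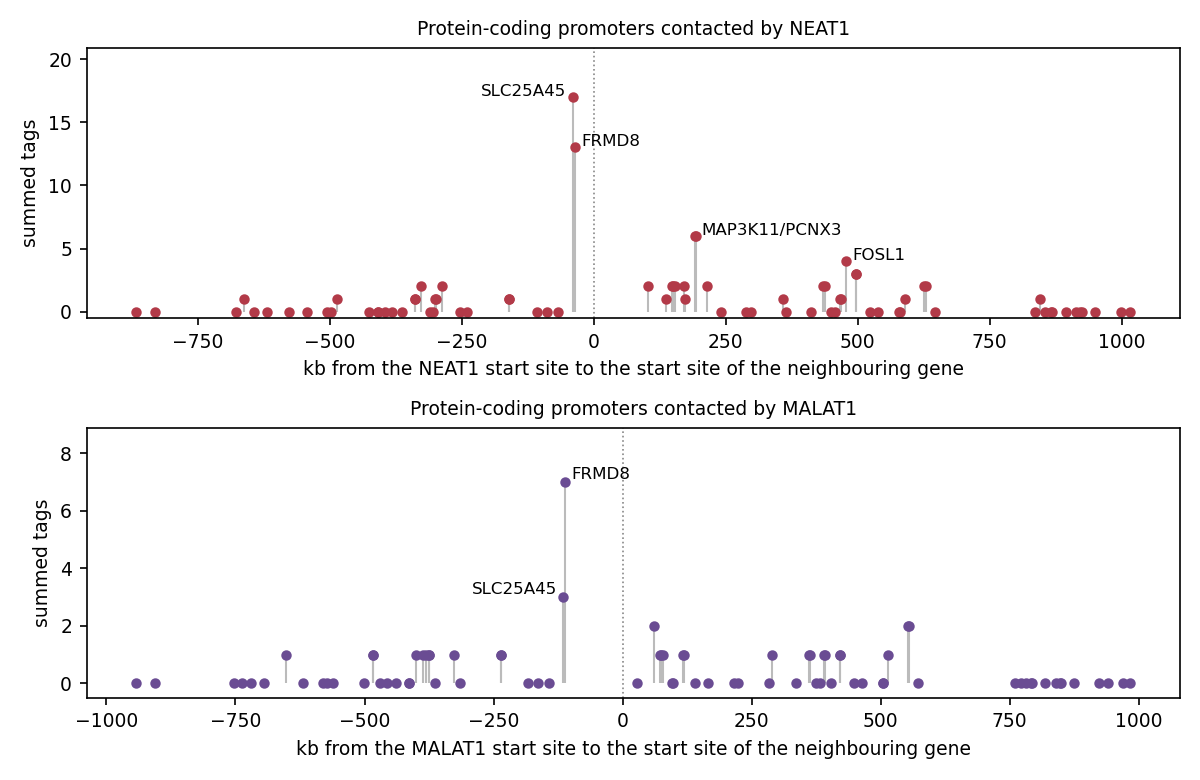
Summed tags of both replicates (y axis) between the anchors of the NEAT1 body (upper panel) or the MALAT1 body (lower panel) and the promoter anchors of neighbouring protein-coding genes, against the distance between start sites (x axis, kb). SLC25A45 with 17 and FRMD8 with 13 stand highest for NEAT1, and FRMD8 with 7 for MALAT1, while no other promoter exceeds 6.

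Contacts with neighbouring promoters were counted for the 88 protein-coding genes with a start site within 1 Mb of the interval, with a promoter taken as the start site ± 2.5 kb. The promoters of NRXN2, MEN1, MAJIN, TMEM262 and CATSPER1 had no anchor, so contacts with them could not be counted. NEAT1 had a count with 34 of the 79 promoters within its reach of 1 Mb, and 11 of these had counts in both replicates. MALAT1 had a count with 29 of 81, and 1 of these had counts in both replicates. A total of 22 promoters had a count with both genes and 38 with neither. Genes that share a promoter anchor have the same counts, so these numbers are of genes, not of independent contacts. No such share was taken for other genes at these distances and depths, so the numbers cannot be read as a trait of NEAT1 or MALAT1. Only FRMD8 with MALAT1 had an interval wholly above its expected count. The intervals of these 79 and 81 promoters were not adjusted for their number, and among so many 1 such interval can come from counting error.

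The promoters of SLC25A45 and FRMD8, the first genes upstream, had the most counts with NEAT1. SLC25A45, with its start 40.2 kb upstream of that of NEAT1, had 9 and 8 counts, 1.40 times the expected 12.1 (0.818 to 2.25). FRMD8, 36.2 kb upstream, had 8 and 5, 1.51 times the expected 8.64 (0.801 to 2.57). Both values are within the counting error of the expectation. For FRMD8 the replicates differed, with a ratio of 2.92 (1.26 to 5.75) in replicate 1 alone and 0.848 (0.275 to 1.98) in replicate 2 alone.

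Farther contacts of NEAT1 rested on few counts. MAP3K11, a kinase upstream of JNK, and PCNX3 share an anchor 195 kb from A6 and had 1 and 5 counts with NEAT1, 2.12 times the expected 2.83 (0.779 to 4.62). FOSL1, a subunit of AP-1 whose start is 478 kb downstream, had 0 and 4 counts, 2.60 times the expected 1.54 (0.708 to 6.65). All 4 came from the start anchor A6 and all from replicate 2. In the other promoters with a count NEAT1 had 1 to 3.

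MALAT1 had fewer counts with promoters than NEAT1. Its highest was FRMD8, 111 kb upstream, with 2 and 5 counts, 3.86 times the expected 1.81 (1.55 to 7.96), of which 6 came from the 3′ end anchor A17 and 1 from the start anchor A16. In replicate 1 alone the ratio was 2.53 (0.306 to 9.13). SLC25A45 had 0 and 3 counts, 0.936 times the expected 3.21 (0.193 to 2.73). FRMD8 was thus the promoter with counts in both replicates.

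The next promoters of MALAT1 had 2 counts each. LTBP3, which encodes a binding protein of latent TGF-β and lies 60.7 kb downstream, had 0 and 2 counts against 3.28 expected (ratio 0.609, 0.0738 to 2.20). SF3B2, a splicing factor of the U2 snRNP, and its neighbour GAL3ST3, a sulfotransferase gene, lie 555 and 552 kb downstream and had 2 and 0 counts with both MALAT1 and NEAT1. With MALAT1 the ratio was 6.16 (0.746 to 22.2) for SF3B2 and 3.99 (0.483 to 14.4) for GAL3ST3, which share these tags, and both intervals included 1. MAP3K11 and PCNX3 had 0 and 1 with MALAT1, 0.347 times the expected 2.88 (0.00878 to 1.93). In this order of promoters, those below FRMD8 do not differ from each other beyond counting error.

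The likeness of the start anchors was measured by the partner anchors they share within 1 Mb. The NEAT1 start had 52 partners, and the promoter anchors that shared the most with it were those of SLC25A45 (32, which is 61.5% of the partners of NEAT1 and 50.0% of those of SLC25A45), MAP3K11 and PCNX3 (24, 46.2% and 38.7%) and FAU and MRPL49 (22, 42.3% and 41.5%). The MALAT1 start had 33 partners and shared 22 with SLC25A45 (66.7% and 34.4%), 21 with the NEAT1 start (63.6% and 40.4%) and 18 with MAP3K11 and PCNX3 (54.5% and 29.0%). Deep anchors have more partners and therefore share more, and these numbers are a description.

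The genes of the proteins that reside in the nuclear bodies of these RNAs were examined as a list of 16. Their promoters had a median of 46.5 summed counts to anchors within 1 Mb, compared with 24.0 for all protein-coding genes, and 10 of the 16 (62.5%) had a pair with a summed count of at least 5, compared with 30.3%. The 30.3% is over all 20163 protein-coding genes, of which 16576 had a promoter anchor, whereas all 16 genes of the list had one. SRSF1, a splicing factor of speckles, was the highest with 64 and 58 counts. SON, a core protein of speckles, had 29 and 34 counts and the deepest single pair of the list, 12. The paraspeckle proteins NONO with 3 and 10 counts and PSPC1 with 7 and 6 were the lowest, and SFPQ, which binds NEAT1 with them, had 19 and 28. Thus deep promoters were found among genes of both kinds of nuclear body, with a wide spread from 13 to 122 counts.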

How the data were processed

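H3K27ac HiChIP was measured in 2 replicates of HCT116 cells. The authors digested chromatin with MboI, processed reads with HiC-Pro and called loops with hichipper. For each replicate they deposited the raw count of paired-end tags for each anchor pair of 1 chromosome, same-anchor pairs included. Versions and the source of the anchors are not given in the sources used here. Per the labels the build is hg19, and all 250222 anchor ends and 250221 of the starts fell on GATC sites of GRCh37. The counts are not normalized and hold no molecular identifiers, so intervals cover counting error only. Wide anchors can hold several elements, and their contacts cannot be separated.

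Genes came from GENCODE release 44 lifted to GRCh37 (canonical transcripts), promoter sequences from RefSeq. The expected count was computed per replicate from 60 distance classes and anchor weights balanced in 20 rounds, with the pair left out of its anchors' depth and an offset of 0.5, and then summed. Intervals are exact 95% (Poisson or Clopper-Pearson). The script was tested on simulated data. Alternatives changed the distance range, the anchors taken, the minimum count, the promoter width, the expectation and the adjusted p, and left out each replicate. Genes and pairs were named by count (at least 5, or the 5 highest) or ratio. Members and lists were chosen with earlier results of these data known. PECAM1, on the marker list, was not matched. Some genes of the lists and of the interval are not reported here. The software was Python 3.11.15, matplotlib 3.10.9, pysam 0.24.0, scipy 1.17.1, numba 0.67.0, pandas 2.3.3 and numpy 2.4.6.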

Additional observations from a re-analysis of the deposited data

Results flagged for a closer look

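Counts of the interval with anchors more than 1 Mb away lie outside the range analysed above. They numbered 220 in 216 pairs, 96 in replicate 1 and 124 in replicate 2, and no pair had more than 2. They made up 19.2% of the counts of the interval with other anchors, compared with 31.2% in the whole series, and 1 pair had counts in both replicates.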

How the results depend on the processing

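The 434 pairs became 146 with the anchors of the NEAT1 and MALAT1 bodies alone, 123 with a summed count of at least 2, and 226 to 292 with 1 replicate left out, and the share found in both replicates rose from 19.4% to 26.0% and 68.3% under the first 2 of these. The 18 counts between NEAT1 and MALAT1 became 7 with the start anchors alone, 36 with gene bodies extended by 5 kb and 6 to 12 with 1 replicate left out. Their ratio of 2.85 was 2.36 to 3.18 with 1 replicate left out, with an interval that included 1 (0.866 to 5.13) without replicate 2, and 2.66 to 14.8 under the other alternatives, all above 1. The number of pairs above the expected count went from 0 to 23 when distance alone set the expectation. With a summed count of at least 2 and of at least 5, the promoters in contact with NEAT1 went from 34 to 19 and 4 and those with MALAT1 from 29 to 5 and 1, and with 1 replicate left out they were 20 to 25 and 9 to 21. The share of MALAT1 counts towards NEAT1 was 80.3% beyond 20 kb and 83.0 to 89.3% with 1 replicate left out, and that of NEAT1 towards MALAT1 56.6 to 71.1%. Distance alone turned NEAT1 with anchors before the interval from 0.576 to 1.64 and MALAT1 with anchors after it from 0.482 to 1.55. For 41 named ratios it was recorded whether the interval lay above 1, lay below 1 or included 1. This was unchanged for 41 when chromosome 11 was fitted alone and for 40 when the pair's own count stayed in the anchors' depth. It was unchanged for 36 without replicate 1 and for 28 without replicate 2, after which 9 no longer stood apart from 1. Against distance alone it was unchanged for 15, while 24 came to stand apart from 1 and 2 reversed. A ratio whose interval included 1 could cross 1 and still count as unchanged, as A2 with A6 did without replicate 1 (1.47 to 0.575). At 434 pairs of which 311 hold 1 count, contacts of single promoters are limited by depth. No paired analysis was possible because both replicates are of 1 condition and no groups were compared.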
